A study of Arabidopsis thaliana with 18 samples.

Results

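Seedlings of the Arabidopsis mutant gun1-9 were compared with the wild type Col-0 when both had grown on norflurazon. The comparison used 6 of the 18 arrays of the series, 3 for each genotype, chosen by genotype and treatment label alone, and every probe set that was not an array control. All seedlings were 5 days old and had grown in continuous light on plates with sucrose. Treated plates held 5 µM norflurazon and untreated plates none, so that the same genotypes without the herbicide (3 arrays each) and the second mutant, gun5, on the herbicide (3 arrays) could be set beside the comparison. The 3 arrays of a group are biological replicates by the series design. RNA came from seedlings in bulk, and the labels do not say what the gun1-9 or gun5 alleles change in the gene.

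Norflurazon stops carotenoid synthesis, and without carotenoids a plastid is bleached by light. A wild-type plant answers such damage by turning down nuclear genes for photosynthesis, a plastid-to-nucleus route called retrograde signalling. The genomes uncoupled (gun) mutants were found because they turn these genes down less. The GUN1 protein resides in plastids and carries pentatricopeptide repeats, while GUN5 is part of the magnesium chelatase that starts the chlorophyll branch of tetrapyrrole synthesis. Transcripts of GUN1 and GUN5 themselves were not analysed here, because no probe set was assigned to either gene alone.

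The median intensity of the arrays lay between 14.7 and 16.3, and Pearson's r between arrays of a group, across probe sets, was at least 0.992. Between treated gun1-9 and treated Col-0 arrays it was 0.974 to 0.975. The ratio of the 3′ to the 5′ control of the GAPDH transcript, a sign of RNA integrity, was 1.06 to 1.19 on the treated Col-0 arrays and 1.10 to 1.13 on those of gun1-9. For the actin transcript the ratio was higher, 2.07 to 2.84 on the treated Col-0 arrays and 2.07 to 2.47 on those of gun1-9. Having 3 arrays a group limits the precision of every mean. Differences are log2 values of intensity + 1, gun1-9 minus Col-0, with the standard error (SE) of a limma fit to all 18 arrays, and a call means a Benjamini-Hochberg adjusted p under 0.05. A scale with 1 added shrinks changes of dim probe sets, and the choice of that constant matters for them: with 16 added in its place, 5 genes taken up below moved from 5.14 to 3.01 (AT3G28270), 4.54 to 2.74 (UGT84A3), -4.07 to -2.44 (psaA), -4.26 to -2.65 (LEA18) and -4.08 to -2.16 (AtLEA4-1).

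On norflurazon the genotypes differed in 5143 of 22746 probe sets (22.6%), with 2354 higher (10.3%) and 2789 lower (12.3%) in gun1-9. Which side held more calls depended on the scaling: 45.8% of the calls were higher here, and 54.2% (2632 higher, 2221 lower) once the arrays had been set to a common median. Differences of at least 2-fold were called for 853 higher (3.75%) and 419 lower (1.84%) probe sets. Without norflurazon only 90 probe sets were called (0.396%), 33 higher (0.145%) and 57 lower (0.251%), of which 12 (0.0528%) and 27 (0.119%) differed by at least 2-fold. The genotype difference itself changed with the treatment, by the interaction term of the fit, in 3476 probe sets (15.3%), by at least 2-fold upwards in 961 (4.22%) and downwards in 524 (2.3%). At an 8-fold minimum, 69 probe sets were higher and 61 lower, and 40 of those 61 belonged to genes of the plastid genome.

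**Figure D1:**
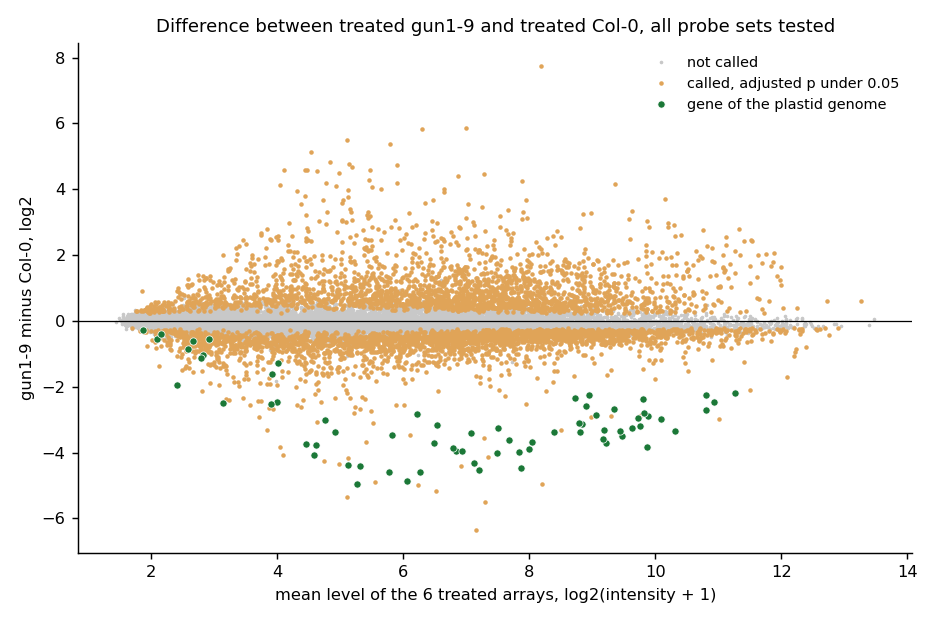
Difference between treated gun1-9 and treated Col-0 (vertical axis, log2) against the mean level of the 6 treated arrays (horizontal axis, log2 of intensity + 1) for all 22746 probe sets. Grey points were not called, orange points were called at an adjusted p under 0.05, and green points are the 69 genes of the plastid genome, which lie below 0.

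The plastid carries its own small genome, with genes for parts of both photosystems, the cytochrome b6f complex, the ATP synthase, an NADH dehydrogenase-like (NDH) complex, the large subunit of rubisco, ribosomal proteins and the core of a plastid RNA polymerase. Of 69 such genes with a probe set of their own, 67 were lower in treated gun1-9 than in treated Col-0, where 12.3% of all probe sets were lower, and none was higher. Their median difference was -3.24, against -0.02 over all probe sets tested. Every treated gun1-9 array lay below every treated Col-0 array for 67 of the 69 genes, a count that was not made over all probe sets. In bulk seedlings, fewer cells with such plastids and less plastid RNA per cell cannot be told apart.

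The photosystem genes were lower by medians somewhat smaller in size than those of the genes for plastid gene expression. The gene psbC, for an inner antenna protein of photosystem II, read 297, 164 and 199 in treated Col-0 and 9.04, 3.92 and 5.86 in treated gun1-9, a difference of -4.94 (SE 0.24, adjusted p = 5.1e-11). No gun1-9 value came near the Col-0 range. The gene psaA, for a reaction centre protein of photosystem I, read 90.6, 91.8 and 110 in Col-0 and 5.90, 4.78 and 4.03 in gun1-9 (-4.07, SE 0.21, adjusted p = 1.15e-10). The gun1-9 values of both genes approach 3.79, the intensity below which probe sets were counted as dim, and such values bound how large a difference could be measured. All 5 photosystem I genes were lower (median -3.02), as were all 15 of photosystem II (median -3.25), the smallest difference being that of psbN (-0.86, means of 7.35 in Col-0 and 3.49 in gun1-9), which 2 of 14 alternative settings did not call.

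The other complexes of the photosynthetic membrane followed. All 6 genes of the cytochrome b6f complex were lower (median -2.36), from petL at -4.59 to petD at -0.55. The bright gene petB read 5205, 5010 and 5449 in Col-0 and 1480, 913 and 1125 in gun1-9, a 4.54-fold lower level (-2.18, SE 0.13). All 6 ATP synthase genes were lower (median -2.98), among them atpB, for the catalytic beta subunit, at -2.71 (SE 0.12). The smallest difference was that of atpI (-0.63), with means of 7.0 in Col-0 and 4.09 in gun1-9, a call that 8 of 14 alternative settings did not make. Of 10 NDH genes 9 were lower (median -2.92), led by ndhJ at -4.41, while the dim ndhF was not called (-0.27, adjusted p = 0.17).

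Genes that plastids need to express their genome were lower too, with a median of -4.01 for the RNA polymerase. Of 4 genes for the plastid-encoded RNA polymerase, rpoC2 read 499, 289 and 320 in treated Col-0 and 16.5, 9.74 and 9.16 in treated gun1-9 (-4.86, SE 0.20, adjusted p = 7.59e-12). The groups were far apart for rpoC2, for rpoC1 (-4.53) and for rpoA (-3.49). The fourth, rpoB, read 6.71, 8.25 and 9.80 against 4.05, 7.13 and 5.05, groups that overlap, and was not called (-0.54, adjusted p = 0.121). All 15 ribosomal protein genes were lower (median -3.59), with rpl14 at -4.46 and rps4 at -3.82 well apart and rps14, with means of 4.11 and 2.89, at -0.40, a call that 4 of 13 alternative settings did not make.

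The remaining plastid genes also were lower, 8 of 8 with a median of -3.20. The gene rbcL, for the large subunit of rubisco, read 320, 209 and 287 in Col-0 and 13.2, 9.10 and 8.79 in gun1-9 (-4.59, SE 0.20, adjusted p = 2.22e-11). The smallest difference of this group was that of clpP, for a subunit of the plastid Clp protease, at -2.38 (SE 0.10), with 1835 to 2355 in Col-0 and 368 to 409 in gun1-9. How far a gene could fall went with its brightness: among the 55 genes with a mean of at least 50 in treated Col-0, all 55 were at least 4-fold lower, and among the 14 dimmer ones 3 were.

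**Figure D2:**
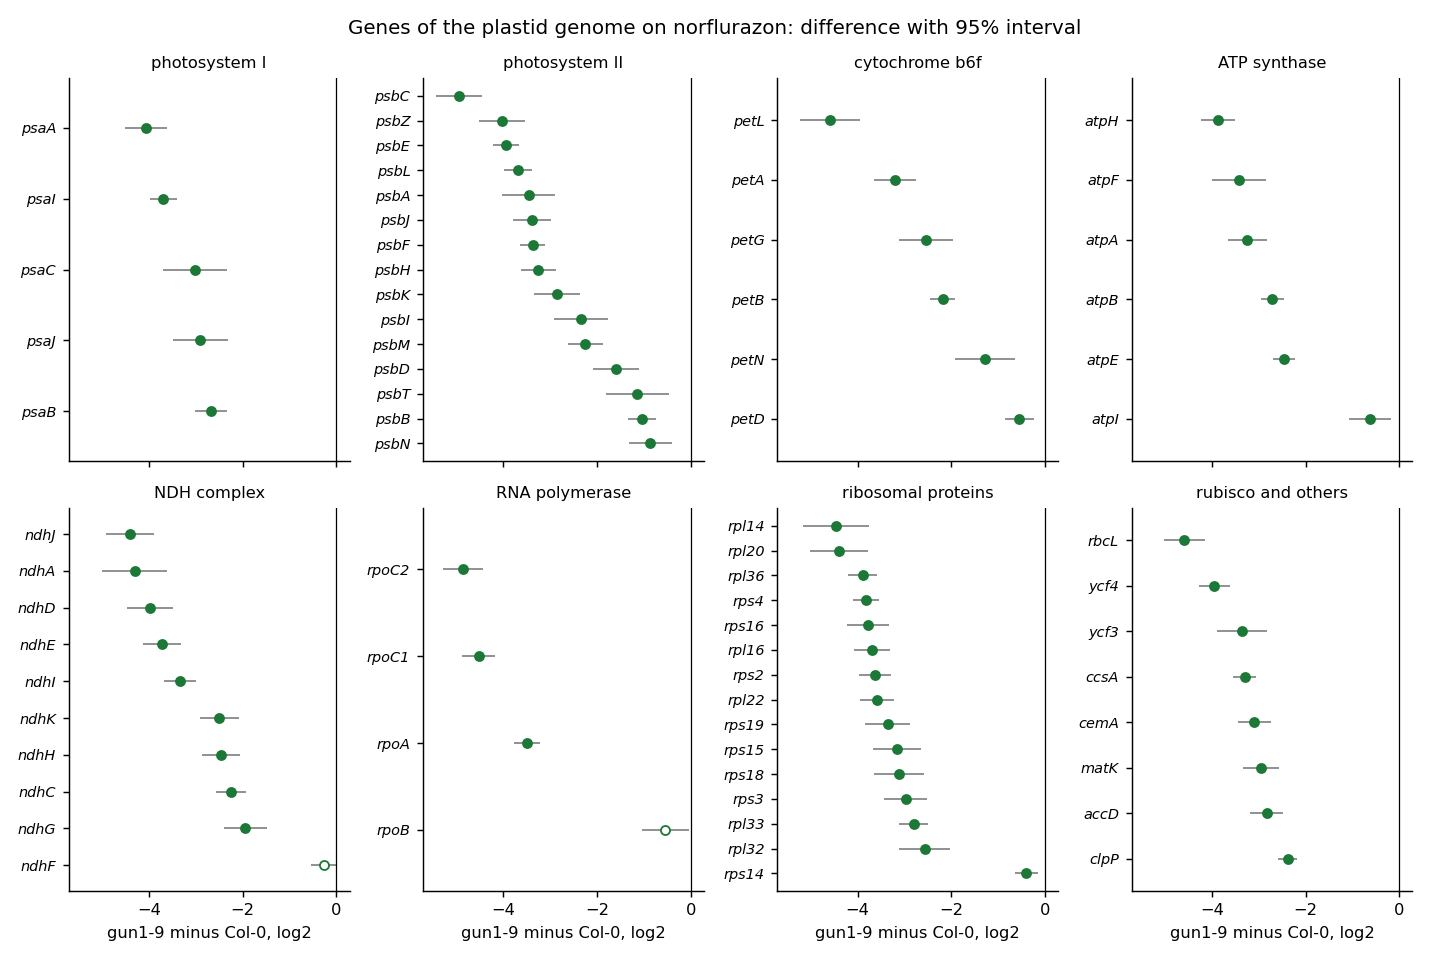
Difference between treated gun1-9 and treated Col-0 (horizontal axis, log2) for the 69 genes of the plastid genome, grouped by the complex or process they serve. Points are the fitted differences of 3 against 3 arrays, bars are 95% intervals, and the 2 open points, ndhF and rpoB, were not called.

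Treated levels were also set against untreated levels of the same genotype, as a description without a test. For photosystem II genes the treated mean was a median of 43.1% of the untreated mean in Col-0 and 4.26% in gun1-9. For the 4 RNA polymerase genes it was 85.9% in Col-0 and 6.54% in gun1-9, and for the 15 ribosomal protein genes 92.3% and 8.56%. In Col-0 single genes ranged widely around these medians, from 67.5% to 110% for the RNA polymerase and from 50.3% to 141% for the ribosomal proteins. In gun5 these medians were 70.4%, 118% and 108%. Without norflurazon none of the 69 genes was called between gun1-9 and Col-0 (0.396% of all probe sets were), with a median difference of -0.07, and the interaction was called, and negative, for 63 of 69, against 7.21% of all probe sets.

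A control of the array moved with the same group. The probe set for cytosolic 25S ribosomal RNA read 55.9, 32.3 and 35.0 on the treated Col-0 arrays against 3143, 927 and 2370 on those of gun1-9. It was 23.5 to 46.7 in the untreated arrays of these genotypes and 49.0 to 96.9 in treated gun5. The 5S ribosomal RNA control was 2.75 to 3.36 on the treated Col-0 arrays and 2.67 to 2.83 on those of gun1-9. The part of ribosomal RNA in the plastid result was not tested. The 16 genes of the mitochondrial genome had a median of -0.12, against -3.24 for the plastid genes. Of the 16, 3 were lower (12.3% of all probe sets were) and none was higher. They were cox2 (-1.02), nad5 (-0.68) and orfX (-0.45), and a second nad5 probe set read -1.11 (adjusted p = 0.00105). Treated means of 4 of the 16 genes in Col-0 and 5 in gun1-9 were below the dim level, where a fall can hardly be measured. The call of orfX was not made by 11 of 15 alternative settings.

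Nuclear genes for photosynthesis went the opposite way. All 3 measured antenna genes, all 7 genes for photosystem and electron transport subunits and all 6 of the Calvin cycle and photorespiration were higher in treated gun1-9, where 10.3% of all probe sets were. LHCB4.2, a minor antenna protein of photosystem II, read 211, 238 and 299 in treated Col-0 and 2406, 2711 and 2422 in treated gun1-9, a 10.1-fold difference (3.34, SE 0.14, adjusted p = 8.22e-12). The groups did not overlap. The level in treated gun1-9 (2513 ± 171, SD, n = 3) was below that of untreated gun1-9 (4468 ± 515, SD, n = 3).

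Its relatives LHCB4.1 (2.14) and LHCB4.3 (1.87) were higher too. PSAE-1, a photosystem I subunit at the stromal side, read 916, 816 and 1044 in Col-0 and 5531, 5475 and 5090 in gun1-9 (2.54, SE 0.09, adjusted p = 9.86e-13). The groups stood 5.82-fold apart. PSAN of photosystem I (2.12), PSBY of photosystem II (1.9) and ATPC1, the gamma subunit of the plastid ATP synthase (1.69), were higher as well. The smallest of the 7 was PGRL1B, of cyclic electron transport around photosystem I, at 0.34 (SE 0.11, adjusted p = 0.0435), a call that 7 of 15 alternative settings did not make.

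Carbon fixation genes were higher in treated gun1-9 than in treated Col-0 by similar amounts. PRK, phosphoribulokinase of the Calvin cycle, read 482, 496 and 453 in treated Col-0 and 2154, 2064 and 1946 in treated gun1-9 (2.10, SE 0.10, adjusted p = 4.18e-11). HPR, the hydroxypyruvate reductase of photorespiration, read 845, 829 and 791 against 4270, 3925 and 3785 (2.28, SE 0.09, adjusted p = 4.89e-12). Both groups of both genes were tight and well apart. In treated gun1-9 the mean of HPR was 3993 ± 250 (SD, n = 3), next to 4268 ± 119 in untreated gun1-9. SBPASE, sedoheptulose bisphosphatase (1.89), and AT1G56190 (1.76) came next, and AT1G80380 had the smallest difference of the 6 (0.78, adjusted p = 1.41e-05).

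Set against untreated seedlings of the same genotype, the 6 Calvin cycle and photorespiration genes held a median of 18.2% of their level in treated Col-0, 72.0% in treated gun1-9 and 77.0% in treated gun5. For the 7 photosystem and electron transport genes these medians were 18.5%, 65.8% and 63.3%. For the 3 antenna genes they were 10.3%, 56.2% and 35.1%. In untreated seedlings none of these 16 genes was called, and the interaction was called, and positive, for 15 of them, where 8.07% of all probe sets were, PGRL1B being the exception (0.26, adjusted p = 0.342).

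**Figure D3:**
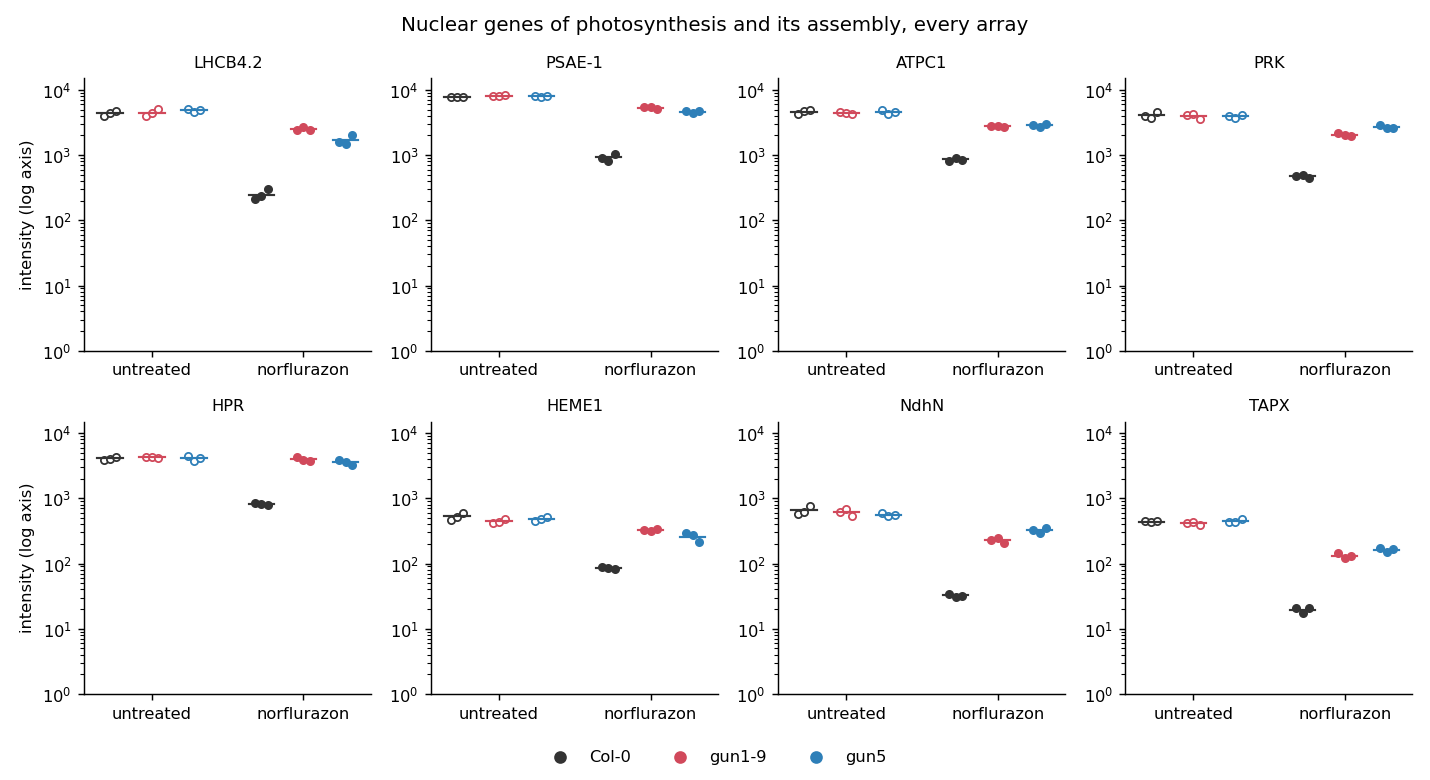
Intensity (vertical log axis) of 8 nuclear genes of photosynthesis in every array of the 3 genotypes, untreated (open points) and on norflurazon (filled points). Lines are geometric means of 3 arrays. In each of the 8 genes all 3 treated gun1-9 arrays (red) lie above all 3 treated Col-0 arrays (black).

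Chlorophyll and haem are made by the tetrapyrrole pathway. Of its 11 measured genes 7 were higher and 1 was lower in treated gun1-9, against 10.3% and 12.3% of all probe sets (median 0.54). HEME1, a uroporphyrinogen decarboxylase, read 88.8, 84.8 and 83.8 in Col-0 and 325, 318 and 339 in gun1-9 (1.92, SE 0.12, adjusted p = 1e-09). The groups were apart, as they were for CHLM, the methyltransferase that follows magnesium chelatase (1.14), and HEME2 (0.91). PORB, a protochlorophyllide oxidoreductase, was higher by 1.32 (SE 0.13), with a mean of 86.6 in treated gun1-9, 34.2 in treated Col-0 and 851 in untreated gun1-9. The lower gene was hemf2, a coproporphyrinogen oxidase paralogue (-0.68, adjusted p = 0.00697), and hemb2 was nearly level (-0.01). Both measured carotenoid genes were higher, LYC, lycopene cyclase (1.21), and Z-ISO, zeta-carotene isomerase (0.78).

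Nuclear genes for the NDH complex and for assembly of the photosynthetic complexes were higher while the plastid-encoded subunits were lower. In a list drawn up after values had been seen, 17 of 19 such genes were higher and none lower (median 1.22). Over all probe sets 10.3% were higher and 12.3% lower. NdhN, a nuclear-encoded NDH subunit, read 34.6, 31.2 and 32.0 in treated Col-0 and 226, 250 and 206 in treated gun1-9 (2.76, SE 0.12, adjusted p = 1.67e-11). Its plastid-encoded partner ndhE read 93.9, 66.1 and 79.6 against 6.23, 4.69 and 4.39 (-3.73, SE 0.19). The same 6 arrays thus held more of one subunit transcript and less of the other. CaS, a calcium-sensing protein of thylakoids (2.03), and TROL, which anchors ferredoxin-NADP reductase (1.76), were among the higher genes, and CRR41 had the smallest difference (0.09, adjusted p = 0.787).

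A broader list of nuclear genes, drawn up for organelle gene expression and picked by symbol, shares 8 members with the previous one. It also holds mitochondrial factors and the NDH subunits NdhL and NdhS, so its counts are not those of expression factors alone. It had 8 of 18 genes higher and 1 lower, against 10.3% and 12.3% of all probe sets (median 0.29). The higher ones were led by the NDH subunits NdhL (2.16) and NdhS (1.51), followed by CRR21 (1.22) and CRR28 (1.2), pentatricopeptide repeat proteins for editing of ndh transcripts. PPR596, a pentatricopeptide repeat protein of mitochondria, was lower at -0.56 (adjusted p = 0.00158), and PPR336, another mitochondrial one, was not called (-0.36, adjusted p = 0.0597). OTP86 was nearly level at a dim signal (-0.02). Of 4 genes for plastid import, proteases and iron-sulfur supply 2 were higher, CPNIFS (0.88), a plastid cysteine desulfurase, and CLPP4 (0.54), a nuclear-encoded Clp subunit, next to the plastid-encoded clpP that was lower.

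Redox and detoxification genes gave a mixed picture. Among 18 genes for scavenging reactive oxygen and for thiol redox control, 8 were higher and 1 was lower (median 0.31). Over all probe sets 10.3% were higher and 12.3% lower. TAPX, the thylakoid ascorbate peroxidase, read 20.7, 17.3 and 20.6 in treated Col-0 and 143, 122 and 130 in treated gun1-9 (2.69, SE 0.09, adjusted p = 1.57e-12). NTRC, a plastid thioredoxin reductase (1.47), TRXF2, thioredoxin f (1.17), and VTC4 of ascorbate synthesis (0.74) were also higher. The peroxidase gene PRXR1 was the lower one (-0.41), and AT2G41480 was level (-0.04).

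Glutathione transferases conjugate foreign and stress-borne molecules. Of 14 measured members of the family, most of the tau class, 3 were higher and 2 lower, where 10.3% and 12.3% of all probe sets were. GSTU18 read 15.5, 18.5 and 18.5 in treated Col-0 and 130, 131 and 120 in treated gun1-9 (2.79, SE 0.12, adjusted p = 9.97e-12). GSTU20 went the other way, with 98.8, 198 and 121 against 11.6, 17.3 and 15.4 (-3.11, SE 0.33, adjusted p = 1.24e-06). Neither pair of groups overlapped. Untreated GSTU20 was 1128 ± 286 in Col-0 and 1217 ± 279 in gun1-9 (SD, n = 3), above the treated values of both genotypes. GSTU16 (2.44) and GSTL3 of another class (0.71) were higher too, and GSTU28 was nearly level (0.03).

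Family 1 glycosyltransferases attach sugars to small molecules such as flavonoids, hormones and phenolic acids. Of 51 measured, 12 were higher and 3 lower, against 10.3% and 12.3% of all probe sets, and the median was 0.05. UGT73C1 read 12.7, 8.93 and 10.7 in treated Col-0 and 352, 284 and 290 in treated gun1-9, 26.4-fold higher (4.72, SE 0.13, adjusted p = 1.58e-13). UGT84A3, one of the enzymes that make sinapate glucose esters, read 4.52, 3.78 and 4.2 against 112, 112 and 133 (4.54, SE 0.13, adjusted p = 1.64e-13). Both were low in every other group, as their untreated gun1-9 means of 7.36 and 7.14 show, apart from UGT73C1 in treated gun5 (68.2 ± 6.23, SD, n = 3). UGT76E11 (2.42) and UGT76C2, a cytokinin glucosyltransferase (2.38), were higher as well. Among 24 cytochromes P450, 3 were higher, led by CYP71B5 (0.77), and 1 was lower, CYP71B37 (-0.92), against 10.3% and 12.3% of all probe sets, so the family's shares were near or below the background. The last was not called in 3 of 15 alternative settings, CYP71B26 (0.55) in 4 and CYP71B6 (0.33) in 7.

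Of 8 flavonoid and anthocyanin genes 6 were lower, where 12.3% of all probe sets were, and the median was -0.85. UF3GT and UGT78D1 are also among the glycosyltransferases above. AT4G14090 read 143, 76.8 and 64.1 in treated Col-0 and 12.6, 26.3 and 15.4 in treated gun1-9 (-2.30, SE 0.30, adjusted p = 1.75e-05). UGT78D1, a flavonol rhamnosyltransferase, was lower by 1.63 (SE 0.22). DFR, dihydroflavonol reductase, read 403, 299 and 229 against 108, 182 and 106, groups that do not overlap (-1.24, SE 0.43, adjusted p = 0.0459), but 9 of 15 alternative settings did not call it, 4 of them by leaving out 1 array (array 1 or 2 of Col-0, array 1 or 3 of gun1-9). UF3GT, an anthocyanin glycosyltransferase (-1.02), was not called without treated Col-0 array 1 or without treated gun1-9 array 1 or 3, and BAN, anthocyanidin reductase, was not called and dim (0.11).

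Chaperones fold other proteins or keep them from clumping. In a further list drawn up after values had been seen, 7 of 13 such genes were higher and 2 lower (median 0.92). Over all probe sets these shares were 10.3% and 12.3%. Hsp70-2, a cytosolic Hsp70, read 43.4, 41.3 and 41.2 in treated Col-0 and 297, 464 and 388 in treated gun1-9 (3.14, SE 0.16, adjusted p = 9.25e-11). It was already higher in untreated gun1-9, with 96.2, 78.7 and 115 against 40.9, 41.6 and 37.5 in untreated Col-0 (1.24, adjusted p = 0.0016). The difference was larger on norflurazon by 1.9 (interaction, adjusted p = 8.34e-06). The immunophilin AT5G48570, also called ROF2 (2.38), Hop3, a co-chaperone between Hsp70 and Hsp90 (2.08), and HSA32 of acquired heat tolerance (1.80) followed. Hop2 was nearly level (-0.03).

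Of 7 genes listed for mitochondrial stress and alternative respiration, 2 were higher, AT5G51440 (2.09) and AT5G09570 (1.73), and none was lower. Over all probe sets these shares were 10.3% and 12.3%. AT5G51440 read 50.9, 69.7 and 93.7 in treated Col-0 and 292, 306 and 295 in treated gun1-9. NDB2, an alternative NADH dehydrogenase of the mitochondrion, was not called (0.03). Both cold-regulated genes COR15B (1.03) and COR15A (0.99), of 5 measured in their list, were higher, with treated means of 3.98 and 2.83 in Col-0 and 9.36 and 6.57 in gun1-9, the latter not without the first treated Col-0 array, and LTI30 was not called (0.05).

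Carbohydrate metabolism contributed 1 of the largest positive differences. ATSPS4F, a sucrose-phosphate synthase, read 27.9, 33.2 and 14.8 in treated Col-0 and 412, 363 and 421 in treated gun1-9 (4.0, SE 0.21, adjusted p = 1.35e-10). Of 25 genes for starch and sucrose 5 were higher and 2 lower, where 10.3% and 12.3% of all probe sets were. SWEET2, a sugar transporter (1.66), was higher, and APL3, a large subunit of ADP-glucose pyrophosphorylase (-1.90), and DPE1, a plastid disproportionating enzyme (-0.75), were lower. SWEET4 was level (0.00) and dim.

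Among 78 cell wall genes 4 were higher and 8 lower (median -0.08), shares below those of all probe sets. The expansin EXPA20 (-1.43), the xyloglucan endotransglucosylase XTH16 (-1.34) and TBL45 (-0.76) were lower, and the expansin EXPB3 (1.04) was higher, with groups that overlap. Leaving out the third treated Col-0 or the second treated gun1-9 array ended the EXPB3 call. In the defence list 2 of 19 genes were higher, close to the 10.3% of all probe sets, and 4 lower (12.3%), with the defensin PDF1.4 at 1.65 and the defensin-like LCR67 at -2.55. LCR67 read 11.6, 22.0 and 79.3 in treated Col-0, a wide spread, and 4.01, 4.16 and 3.54 in treated gun1-9. The thionin THI2.2 (-0.57) and SCPL27 (-0.65) were lower too.

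Small lists showed little. AOP1 of glucosinolate synthesis was the only one of 5 called (-0.81), where 22.6% of all probe sets were. It was not called without the second treated Col-0 array, and AOP3 was level (0.04). None of 5 histone genes and none of 4 genes of nitrogen and sulfur assimilation was called, with HON4 at 0.02 and GAT1_2.1 at -0.01. The light regulator HYH (0.22) was not called, and the clock gene GI (0.59, adjusted p = 0.0555) was called by 7 of 15 alternative settings. The heat shock gene CLPB2 was dim and not called (0.07).

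LEA proteins protect cells in the drying seed, and isocitrate lyase (ICL) belongs to the glyoxylate cycle that turns stored oil into sugar after germination. Of 8 genes listed for seed storage and oil bodies 3 were lower (12.3% of all probe sets were). All 3 were LEA genes, LEA18 (-4.26), AtLEA4-1 (-4.08) and LEA4-5 (-2.66). The 5 others were not called, among them the oleosin OLEO3 (0.09) and AT1G03890 (-0.04). These 5 also include AT2G46140 and AT2G44060, which are listed with the LEA genes. ICL was the only measured gene of the glyoxylate cycle list. LEA18 read 196, 81.5 and 97.8 in treated Col-0 and 4.11, 7.63 and 4.23 in treated gun1-9 (SE 0.54, adjusted p = 1.13e-05). ICL read 2132, 2460 and 2493 against 277, 452 and 266 (-2.87, SE 0.63, adjusted p = 0.00257). The groups of both genes were far apart.

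Without norflurazon ICL was called and none of the 8 listed seed genes was. Untreated ICL read 478, 80.8 and 222 in Col-0 and 25.1, 4.16 and 22.8 in gun1-9 (-3.80, adjusted p = 0.0143). The interaction was not called (0.94, SE 0.89, adjusted p = 0.588), with an SE too large to decide whether the difference depended on norflurazon. Untreated LEA18 read 112, 11.8 and 35.2 in Col-0 and 7.78, 4.32 and 5.17 in gun1-9 (-2.50, adjusted p = 0.0549). The untreated Col-0 arrays spread widely, with the first array highest and the second lowest for both genes. Without the third untreated Col-0 array the count of calls between untreated genotypes went from 90 to 27, and without the third untreated gun1-9 array to 34. In treated gun5, ICL read 247 ± 111 and LEA18 5.97 ± 1.98 (SD, n = 3), and neither was called different from treated gun1-9.

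Organ markers were measured only in part. The root hair expansins EXPA7 (-0.08) and EXPA18 (-0.05) were not called, with sums of 288 to 476 in treated Col-0 and 288 to 439 in treated gun1-9. Of the stomatal and meristem genes, FMA (-0.29), SPCH (0.30) and CLV3 (0.02) were not called, and CLV3 was dim in both groups. The part of organ proportions in the results was not tested beyond these 5 genes.

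**Figure D4:**
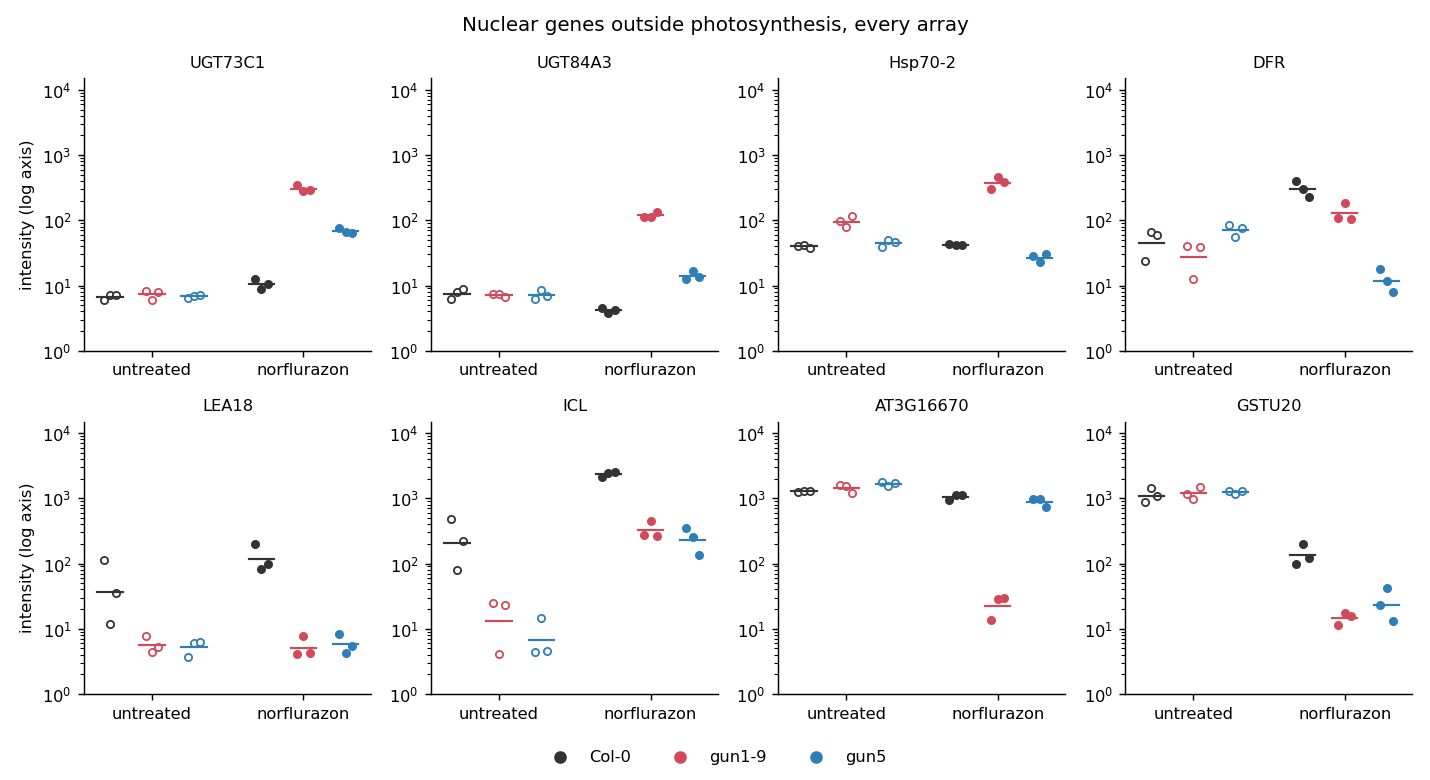
Intensity (vertical log axis) of 8 nuclear genes outside photosynthesis in every array, with open points for untreated and filled points for treated seedlings and lines for geometric means of 3 arrays. UGT73C1 and UGT84A3 are highest in treated gun1-9 (red), AT3G16670 is lowest there, and LEA18 and ICL are lower in both mutants than in Col-0 (black) of the same treatment.

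The nuclear genes with the largest differences, 12 in each direction among those called with groups that did not overlap, included many known here only by locus code. AT3G28270 read 2.18, 3.83 and 2.92 in treated Col-0 and 143, 150 and 120 in treated gun1-9 (5.14, SE 0.20, adjusted p = 3.69e-12). AT1G60590 (4.78), AT2G29370 (4.68), AT1G09500 (4.58), AT5G48490 (4.49), AT4G28080 (4.24), AT1G75460 (4.08), AT4G37560 (3.97) and AT5G50915 (3.95) were the others besides UGT73C1, UGT84A3 and ATSPS4F. In all 12 the interaction was called and the untreated genotypes were not called different. Their untreated levels differed widely. In Col-0, AT3G28270 had a mean of 114 untreated and 2.98 treated, AT1G75460 of 665 and 10.1, and ATSPS4F of 807 and 25.3. AT2G29370 and AT1G09500 were low in both untreated genotypes, with Col-0 means of 9.91 and 3.19, and read 174 to 193 and 62.9 to 108 in treated gun1-9.

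The lower 12 held the largest single difference, AT3G02480, with 1550, 1160 and 1172 in treated Col-0 and 5.72, 68.6 and 7.47 in treated gun1-9 (-6.34, SE 0.89, adjusted p = 3.74e-05). The second gun1-9 array stood well above the other two, and the 95% interval of the difference was -8.22 to -4.46. AT3G16670 read 949, 1115 and 1123 against 13.5, 28.5 and 29.3, 45.2-fold lower (-5.50, SE 0.21, adjusted p = 3.69e-12). AT1G23130 read 476, 562 and 615 against 14.6, 17.0 and 11.9 (-5.16, SE 0.15, adjusted p = 1.61e-13). Both were high in every other group, with untreated gun1-9 means of 1451 and 917. AT2G47780 (-4.98), AT3G15670 (-4.33), AT1G67860 (-4.15), AT1G04560 (-3.82) and AT5G66780 (-3.32) joined LEA18, AtLEA4-1, GSTU20 and ICL.

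Of the 12 lower genes 7 had a called interaction. AT3G15670, LEA18, AtLEA4-1, AT1G04560 and ICL did not, and their untreated differences ran from -2.31 to -3.80, of which those of AT1G04560 and ICL were called. All 24 genes kept their call in each of 15 alternative settings of the treated comparison, which their choice as the largest called differences with groups apart favours. Of the 90 probe sets called between untreated genotypes 46 were also called on norflurazon, 51.1% of the former and 0.894% of the latter. Over all probe sets 22.6% were called on norflurazon. Of the 46, 32 went in the same direction and 14 in the opposite one. Both comparisons drew on the same spread estimate for each probe set, so they are not independent. The other untreated differences named by the same rule were AT4G36600 (-2.08) and AT2G21340 (-1.56) on the lower side, and AT1G13650 (1.47), AT5G59330 (1.37), AT5G01870 (1.32) and AT5G01740 (1.11) on the higher side. Each of these 6, and AT1G04560 and AT5G66780, lost its untreated call in 3 to 6 of 13 alternative settings, ICL in 2 and Hsp70-2 in 1.

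**Figure D5:**
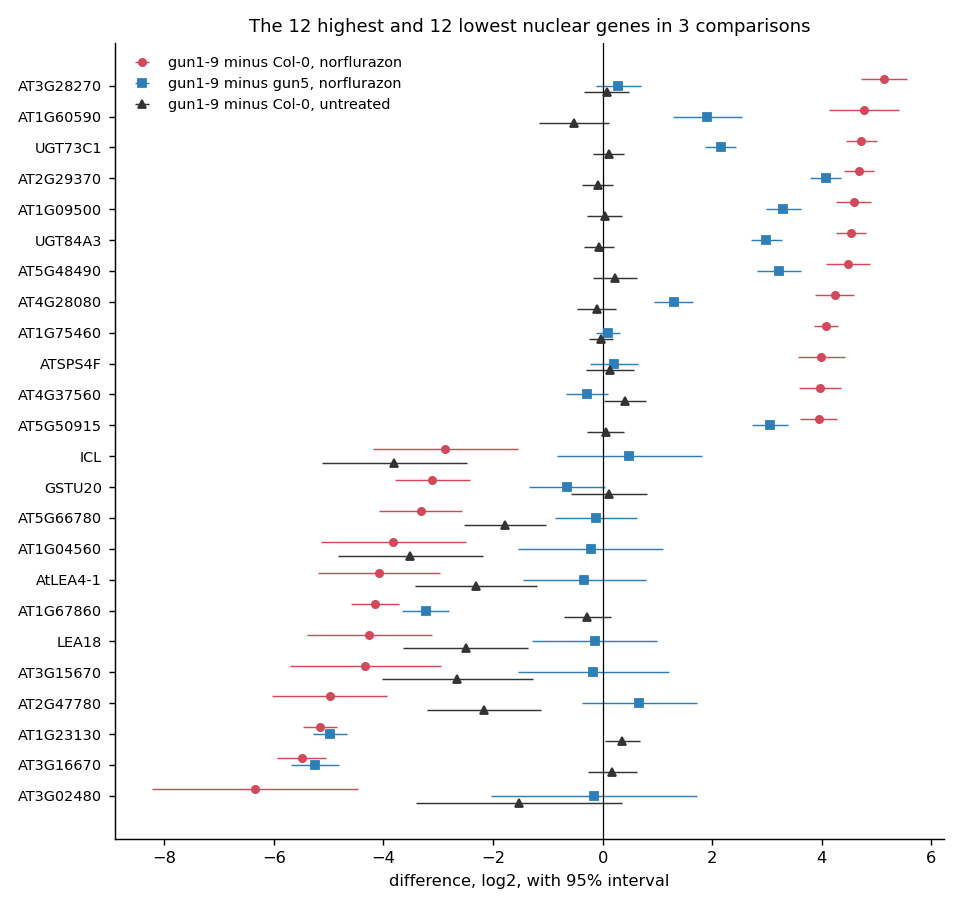
Fitted differences with 95% intervals (horizontal axis, log2) for the 12 nuclear genes most raised and the 12 most lowered in treated gun1-9 against treated Col-0. Red circles give that comparison, blue squares gun1-9 against gun5 on norflurazon, and black triangles gun1-9 against Col-0 untreated. In all 12 raised genes the triangles lie near 0.

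The second mutant shows which differences were also present between gun1-9 and gun5. On norflurazon 2950 probe sets differed between the mutants (13.0%), 1461 higher and 1489 lower in gun1-9, and 217 (0.954%) and 295 (1.3%) by at least 2-fold. Of these calls 49.5% were on the higher side, and 39.1% once the arrays had been set to a common median. This comparison shares the treated gun1-9 arrays with the one against Col-0. Values are therefore given side by side, and no overlap of calls over all probe sets is computed. Of the 69 plastid genes 66 were lower in gun1-9 than in gun5 (median -4.07), where 6.55% of all probe sets were lower and 6.42% higher. In treated gun5 psbC read 1420, 1322 and 1053, above the 164 to 297 of treated Col-0, and the difference between the mutants was -7.49 (SE 0.24). For 63 of the 69 genes the mean of treated gun5 was above that of treated Col-0. The summed intensity of the 69 genes was 8183 to 12846 in treated gun1-9, 73482 to 86405 in treated Col-0 and 103627 to 131799 in treated gun5.

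For nuclear photosynthesis genes the mutants lay closer together. Of the 7 photosystem and electron transport genes none was higher and 1 was lower in gun1-9 than in gun5, PSBY at -0.35 (adjusted p = 0.0397). Of the 6 Calvin cycle and photorespiration genes 1 was higher, AT1G56190 (0.93), and 2 were lower, SBPASE (-0.56) and PRK (-0.39). The 3 antenna genes were higher in gun1-9, by 0.55 to 0.96. Of the 19 NDH and assembly genes 9 were lower and 2 higher in gun1-9, with NdhL at -0.91 and NdhN at -0.52. For PSAE-1 the difference was 0.21, with a 95% interval of 0.03 to 0.39 and an adjusted p of 0.13.

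Of the 12 nuclear genes most raised against Col-0, 8 were higher in gun1-9 than in gun5 as well, where 6.42% of all probe sets were. Among them were AT2G29370 (4.07), AT1G09500 (3.30), AT5G48490 (3.22), AT5G50915 (3.06), UGT84A3 (2.99) and UGT73C1 (2.16). The genes were chosen for their treated gun1-9 values, which this comparison uses again, so such counts are a description and no support. AT3G28270, AT1G75460, ATSPS4F and AT4G37560 were not called between the mutants, with differences of 0.29, 0.10, 0.21 and -0.29. Of the 12 most lowered, 3 were lower than in gun5 (6.55% of all probe sets were), AT3G16670 (-5.25), AT1G23130 (-4.98) and AT1G67860 (-3.23). AT3G16670 read 959, 992 and 745 in treated gun5, next to 949 to 1123 in treated Col-0.

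Some genes set gun1-9 apart from gun5 more than from Col-0. DFR read 17.7, 11.6 and 8.08 in treated gun5 and was 3.32 higher in gun1-9 (SE 0.43, adjusted p = 3.66e-05), although it was lower than in Col-0. UF3GT was 2.96 higher than in gun5 and likewise lower than in Col-0. Hsp70-2 was 3.76 higher than in gun5, AT3G49160 4.30 and AT5G11410 3.85. On norflurazon AT1G47400 read 30.9, 49.0 and 30.3 in Col-0, 6.98, 3.65 and 4.44 in gun1-9, and 249, 222 and 142 in gun5 (-5.09 against gun5, -2.65 against Col-0). The 3 groups did not overlap. AT5G05250 was -3.14 against gun5 but was not called against Col-0 (-0.42, adjusted p = 0.454).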

How the data were processed

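RNA of seedlings was hybridised to 18 one-colour Affymetrix arrays, 3 for each of 6 groups, and samples were grouped by genotype and treatment from their titles. The deposited values are intensities on a linear scale, already summarised to probe sets. The submitters' processing notes name both MAS5 and GCRMA, with no version, and which of them made the values is not given in the sources used here. Arrays have no read depth, and their number sets the precision.

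Of 22810 probe sets 64 controls were left out. Of the rest, 13513 had 1 gene in the platform annotation, 503 had several and 8730 were not listed, so genes were named from the first group only. Values were transformed to log2(intensity + 1), and limma 3.58.1 (R 4.3.3) was used to fit a mean per group over the 18 arrays, by lmFit with eBayes and two-sided tests, with Benjamini-Hochberg adjustment over 22746 probe sets and a call at an adjusted p under 0.05. The fit was tested on simulated data. A group's genes share arrays, so list counts and medians carry no test of their own. The dim level of 3.79 is the 25% quantile of the values.

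Named genes were, by rule, the 12 largest called nuclear differences in each direction with groups apart, the 5 largest in each direction in the comparisons with gun5 and without norflurazon, and, from each list of 3 or more measured genes, up to 4 called members with the largest difference and the smallest one. From smaller lists all were named. Plastid genes ndhE, ndhF, rpoB, rps14 and others of small difference, petB, atpB and clpP, and the partners taken up beside a list were added after values had been seen. The members and lists were chosen with earlier results of these data known, and 2 lists were added after seeing them. The alternatives were another added constant, a filter on dim probe sets, median centring, quantile normalization, trend and robust eBayes settings, the compared arrays alone, the replicate number as a block and each array left out, and, chosen after seeing the data, a fit without plastid genes and one to 12 arrays. Replicate numbers were not used as pairs in the main fit. The deviations of same-numbered treated arrays correlated by 0.0146 to 0.0835, values too few to decide whether the samples were paired. Figures were drawn with matplotlib 3.10.9.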

Additional observations from a re-analysis of the deposited data

Results flagged for a closer look

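In 19 of the 24 most changed nuclear genes the genotype difference on norflurazon differed from that without it by the interaction term (adjusted p under 0.05 in limma). Over all probe sets 15.3% were called. The 24 genes were chosen for their treated difference, which the interaction contains, so their count is a description and no support. The difference with norflurazon minus that without, in log2, was 5.29 for AT1G60590, 5.06 for AT3G28270, 4.77 for AT2G29370, 4.61 for UGT73C1 and 4.61 for UGT84A3. It was 4.54 for AT1G09500, 4.34 for AT4G28080, 4.27 for AT5G48490, 4.10 for AT1G75460, 3.89 for AT5G50915, 3.87 for ATSPS4F and 3.56 for AT4G37560. On the negative side it was -5.68 for AT3G16670, -5.52 for AT1G23130, -4.81 for AT3G02480, -3.87 for AT1G67860, -3.22 for GSTU20, -2.82 for AT2G47780 and -1.55 for AT5G66780.

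Among plastid-encoded genes the same term was called for 63 of 69. The 25S ribosomal RNA control, which no comparison used, had a mean of 2147 ± 1124 (SD, n = 3) in treated gun1-9, against 41.1 ± 12.9 in treated Col-0 and 34.3 ± 10.9 in untreated Col-0. Its part in the results was not tested.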

How the results depend on the processing

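Of 2609 values of named genes recomputed under an alternative, 2491 kept their side of the threshold, 107 lost the call and 11 gained it. None reversed direction among values called in the main fit or in the alternative. Where neither made a call, direction was not compared, and small differences such as that of CRR41 changed sign in some settings. Of 578 list medians, 11 moved by more than their spread. With a 2-fold minimum added, the calls numbered 1272 on norflurazon, 1485 for the interaction, 512 against gun5 and 39 untreated. The untreated count of 90 became 141 with trend and robust settings and 1 with only the arrays compared in the fit, which leaves fewer arrays for the spread. Leaving out each array gave 27 to 120 untreated calls, 27 without the third untreated Col-0 array and 34 without the third untreated gun1-9 array; 4283 to 4378 on norflurazon; 2963 to 3401 for the interaction; and 2189 to 2532 against gun5. With the replicate number as a block the counts were 5275, 3587, 3050 and 106 for the treated, interaction, gun5 and untreated comparisons. Whether equal numbers mark paired samples is not known from the labels, and 2 of 3 treated gun1-9 arrays correlated best with their own number. The causes of these shifts were not tested. Dim probe sets, near the background, limit what can be measured: differences there shrink with a larger added constant. Genes without a probe set of their own were not analysed here.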

Other observations

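The largest positive difference on the array belonged to a probe set without a gene name in the annotation used here. Probe set 259161_at read 21.3, 16.9 and 18.8 in treated Col-0, 4376, 4754 and 3753 in treated gun1-9 and 5053, 4690 and 5377 in treated gun5, a difference of 7.75 between gun1-9 and Col-0. The groups of both mutants lay far above treated Col-0. Probe set 262128_at went the other way, with 310, 163 and 204 in treated Col-0 and 3.09, 5.83 and 4.62 in treated gun1-9 (-5.34).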
